A study of Mus musculus with 19 samples.

Results

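The piRNA pathway and Tudor genes followed here were 9 genes chosen by name, Piwil2, Asz1, Gtsf1, Mov10l1, Mael, Tdrd9, Tdrd1, Tdrd5 and Rnf17. They were read by 14 of the 34945 probe sets that the platform annotation assigns to a single gene, and were 9 of the 18193 genes so annotated. Where a gene had several probe sets, the one of highest mean over the 18 ovary arrays represented it and the others are given beside it. Expression was measured on Affymetrix Mouse430_2 arrays in ovaries of wild-type CD-1 mice, an outbred strain, at gestation days (gd) 11, 12, 14, 16 and 18 and at postnatal day (pnd) 2, with 3 arrays per stage. Samples of gd11, gd12 and gd14 are labelled as pools of 3 and later ones as not pooled, whereas the series text gives 1 animal per sample. The gd11 samples 16 and 18 held gonad with mesonephros and gd11 sample 19 held gonad, and samples 18 and 19 shared a dam. One further array, of whole newborn animals of both sexes, served as a reference without replicates.

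In germ cells, PIWI proteins are guided by piRNAs, small RNAs cut from long single-stranded precursors, to transcripts of transposable elements. Much of the machinery sits in nuage, a granular material beside mitochondria, where Tudor domains bind methylated arginines of the PIWI proteins and bring the processing factors together. In mouse, loss of most of these genes makes males sterile while females stay fertile, and their transcripts are also present in oocytes, which enter meiosis and then arrest during the stages sampled here.

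Promoter sequences, from 250 bases before to 50 after the transcript start, were taken from RefSeq on build GRCm38.p6 and were found for 7 of the 9 genes. Sequences of 5 of them are shown because the largest and the most sharply timed changes described further on belong to Tdrd9, Mael, Mov10l1 and Gtsf1, and because Tdrd1 was the one member near background. These 7 genes' windows were searched on both strands for CACGTG (an E-box of the kind bound by MAX with MGA), for TCCCGC (an E2F-type site) and for CNCCTCAG (the motif reported for the meiotic factor STRA8). Capitals mark every match, in these letters or their reverse complement. Tdrd9 lies on chromosome 12 (chr12:111971309-111971608, plus strand), Mael on chromosome 1 (chr1:166238695-166238994, minus strand) and Mov10l1 on chromosome 15 (chr15:88982744-88983043, plus strand). The Tdrd1 window shown, 1 of 3, is chr19:56825959-56826258 on the plus strand, and the Gtsf1 window is chr15:103430378-103430677 on the minus strand.
Tdrd9: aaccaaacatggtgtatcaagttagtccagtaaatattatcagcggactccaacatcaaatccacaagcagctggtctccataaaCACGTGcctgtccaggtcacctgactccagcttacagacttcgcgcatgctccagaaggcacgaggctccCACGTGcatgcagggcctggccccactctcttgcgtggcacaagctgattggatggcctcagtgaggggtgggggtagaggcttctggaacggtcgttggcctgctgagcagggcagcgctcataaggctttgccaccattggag
Mael: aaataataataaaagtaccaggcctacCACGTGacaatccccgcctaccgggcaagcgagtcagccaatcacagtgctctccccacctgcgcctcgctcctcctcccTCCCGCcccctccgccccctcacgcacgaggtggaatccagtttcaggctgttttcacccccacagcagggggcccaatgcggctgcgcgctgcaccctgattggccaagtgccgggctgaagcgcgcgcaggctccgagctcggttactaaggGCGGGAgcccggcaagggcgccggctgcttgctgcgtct
Mov10l1: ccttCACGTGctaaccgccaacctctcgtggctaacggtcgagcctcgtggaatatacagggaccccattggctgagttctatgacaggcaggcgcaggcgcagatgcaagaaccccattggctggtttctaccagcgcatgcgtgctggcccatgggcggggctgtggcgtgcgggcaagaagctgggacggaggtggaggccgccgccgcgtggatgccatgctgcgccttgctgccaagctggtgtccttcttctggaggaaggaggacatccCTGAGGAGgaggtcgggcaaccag
Tdrd1: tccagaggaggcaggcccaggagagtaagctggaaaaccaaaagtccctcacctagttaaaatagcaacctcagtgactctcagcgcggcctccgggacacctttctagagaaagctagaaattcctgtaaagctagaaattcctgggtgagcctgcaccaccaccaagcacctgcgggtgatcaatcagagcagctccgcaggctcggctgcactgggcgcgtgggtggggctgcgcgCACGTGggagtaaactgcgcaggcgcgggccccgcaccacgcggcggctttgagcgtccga
Gtsf1: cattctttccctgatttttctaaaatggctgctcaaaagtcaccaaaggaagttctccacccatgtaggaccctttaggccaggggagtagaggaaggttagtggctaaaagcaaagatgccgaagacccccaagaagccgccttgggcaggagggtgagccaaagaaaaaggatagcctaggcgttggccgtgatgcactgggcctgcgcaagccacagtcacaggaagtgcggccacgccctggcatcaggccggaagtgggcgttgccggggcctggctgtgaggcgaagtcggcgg
Counted from the transcript start, CACGTG began at -165 and -95 in Tdrd9, at -223 in Mael, at -246 in Mov10l1 and at -11 in Tdrd1. These were 4 of the 7 members with a window, beside 7.15% of the 32817 promoters of the same length. TCCCGC was found in Mael and Tdrd5, 2 of 7 beside 20.0% of promoters, and CNCCTCAG in Mov10l1 and Asz1, 2 of 7 beside 7.94%. A member counted if any of its windows matched, and Tdrd1 had 3 windows. The shares are over single windows and were not matched for CpG count. The Gtsf1 window held none of these letters. The CpG dinucleotides in a window numbered 48 in Tdrd5, 24 in Mael, 20 in Mov10l1, 17 in Asz1, 13 in Gtsf1 and 10 in Tdrd9, where the median promoter had 7. The 3 Tdrd1 windows held 20 (the one shown), 25 and 3, and the third of them had no CACGTG. A match is a description of the sequence and was not tied to any binding in these data.

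Some arrays stood apart from their labels or from the rest. Xist, the RNA that coats the inactive X chromosome, read 44.8 on gd16 sample 7 and 11306 to 18576 on the other ovary arrays. On gd16 sample 7 the Y-linked genes Eif2s3y and Kdm5d read 40.2 and 64.4 (up to 33.1 and 84.4 on the others). The whole-animal array, of both sexes, gave 7.14 and 67.8 for these probe sets. Another probe set of each gene read 803 and 132 on the whole-animal array. Those probe sets read 23.7 and 4 on gd16 sample 7, and up to 26.3 and 29.6 on the other ovary arrays. Markers of Sertoli cells (5 genes) summed to 315 to 455 at gd16, within or below the range of the other stages. Nervous tissue markers summed to 650 to 15564 at gd11 and up to 1583 at gd12, and markers of mesonephros to 657 to 1232 at gd11 and up to 606 at gd12. Both of the highest gd11 sums were of gd11 sample 16. On gd11 samples 18 and 19 the sums were 650 and 970 for nervous tissue and 663 and 657 for mesonephros. Summed germ cell markers (7 genes) lay between 1379 and 2091 at gd11, 3464 and 11086 at gd12, and 32994 and 40752 at gd14. They lay between 11511 and 14472 at gd16, 21944 and 32673 at gd18, and 22114 and 30381 at pnd2. The Gapdh probe sets at either end of the transcript (3' over 5'), which read RNA integrity and amplification, differed 2.99 to 3.28 times at gd11 and 5.07 to 5.41 times at pnd2. The part of these differences in the results was not tested. In whole organs, fewer cells of a type and less RNA per cell cannot be told apart, and this holds for every change given here.

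All 8 members that passed the filter on low signal were higher at pnd2 than at gd11. The filter asked for a mean signal above 116.05, the median of all values, in at least 1 stage, and Tdrd1 did not reach it. At gd11 the means of Mael (17.6), Gtsf1 (19.0), Mov10l1 (56.4), Tdrd5 (61.8), Tdrd9 (82.4) and Asz1 (105) lay below that level. These members passed only through later stages, so their rise from gd11 was in part set by the filter. At gd12 the means of Gtsf1 (75.6) and Tdrd9 (78.45) also lay below it. The share of all probe sets that passed in this way was not counted. Changes are differences of log2(signal + 31) with the standard error (SE) of a limma fit to all 18 ovary arrays, with p adjusted over 26431 probe sets (Benjamini-Hochberg) and calls made where it was under 0.05. Between gd11 and pnd2, 8 of 8 tested members rose, beside 22.4% of all tested probe sets called higher (42% called in either direction). Their median log2 change was 4.60 against 0.01 for all probe sets, and single changes ran from 1.68 ± 0.29 for Rnf17 to 8.03 ± 0.39 for Gtsf1. In the F test over the 6 stages all 8 were called (adjusted p from 4.71e-13 to 6.97e-08), as were 62.8% of all probe sets. On the whole-animal array the 9 representative probe sets read between 3.81 and 128. The interval that held the largest change differed between members.

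**Figure D1:**
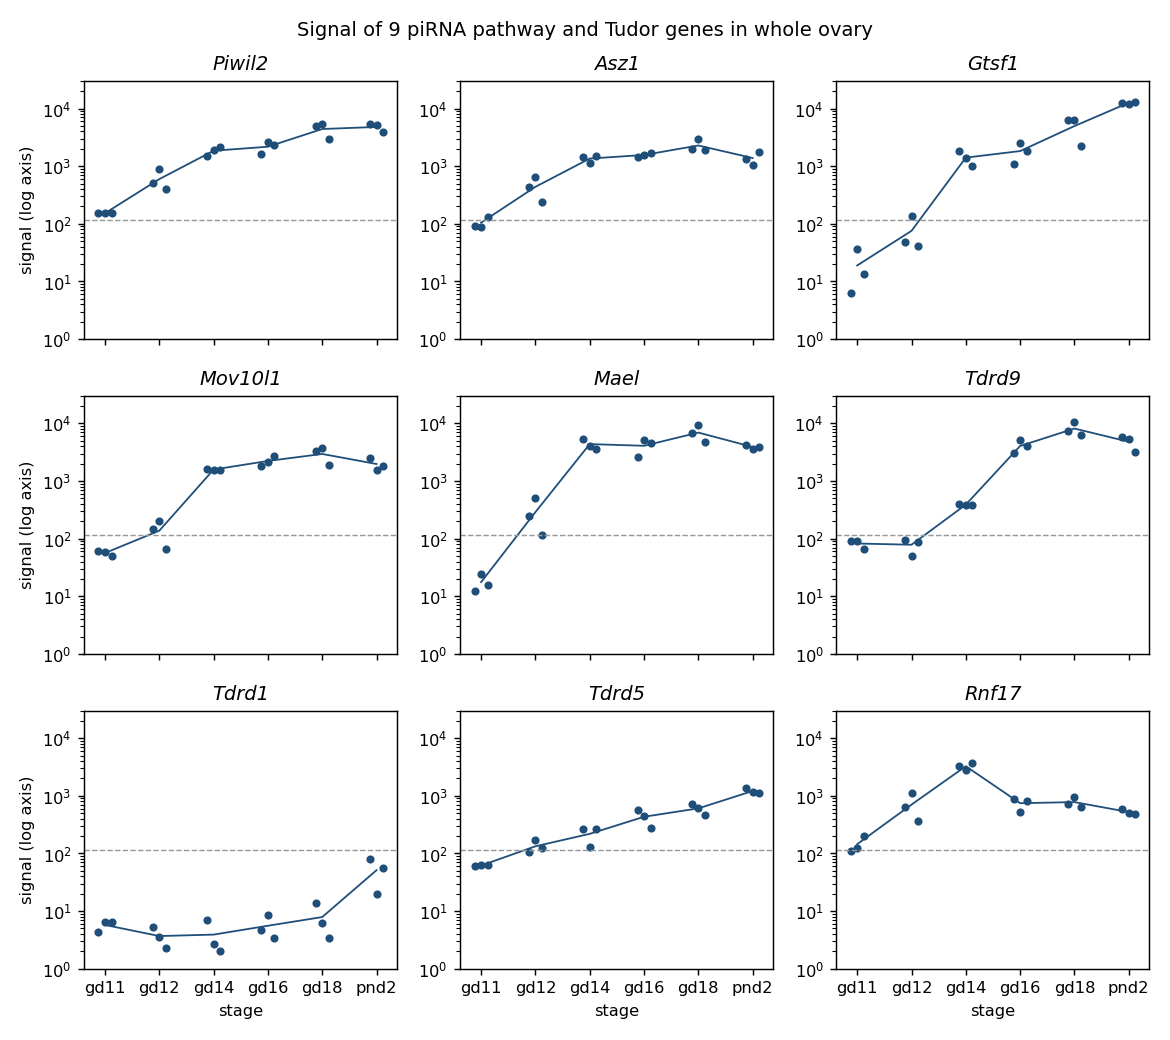
Signal (log scale) of the representative probe set of each of the 9 genes on the 3 arrays of each of 6 ovary stages; points are arrays, the line joins stage means, and the dashed line is the filter level of 116.05. Tdrd1 stayed below the dashed line on every array, while Gtsf1 reached 11866 to 13225 at pnd2.

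Piwil2 encodes MILI, a PIWI protein that cuts its targets and is the earliest of the family in fetal germ cells. Its signal was 151, 154 and 153 at gd11, 508, 885 and 397 at gd12, and 1507, 1927 and 2128 at gd14. It then read 1612, 2616 and 2300 at gd16, 4885, 5436 and 2913 at gd18, and 5306, 5211 and 3870 at pnd2. The 3 first stages did not overlap, gd14 overlapped gd16, all gd18 arrays lay above all gd16 arrays, and gd18 overlapped pnd2. Piwil2 rose by 1.70 ± 0.26 (adjusted p = 0.00104) from gd11 to gd12, by 1.65 ± 0.26 (0.000226) to gd14 and, after a change of 0.21 that was not called, by 0.99 ± 0.26 (0.0252) from gd16 to gd18. The last call was lost without gd18 sample 4 (0.89), gd18 sample 5 (0.81) or gd16 sample 7 (0.79), and in a fit to only the arrays compared. From gd18 to pnd2 its change was 0.15 and was not called, so its highest stage mean, 4796 ± 803 (SD, n = 3) at pnd2, did not stand apart from that of gd18.

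Asz1 (GASZ) is a scaffold on the outer mitochondrial membrane that holds nuage together. Its probe set 1424939_at read 93.1, 87.7 and 134 at gd11, 442, 637 and 236 at gd12, 1431, 1155 and 1484 at gd14. The later values were 1437, 1559 and 1698 at gd16, 1954, 2982 and 1924 at gd18, and 1316, 1054 and 1788 at pnd2. The first 3 stages did not overlap one another, and gd14, gd16 and pnd2 overlapped. Asz1 rose by 1.71 ± 0.27 (adjusted p = 0.00122) to gd12 and by 1.65 ± 0.27 (0.000286) to gd14, and its later changes of 0.21, 0.51 and -0.71 were not called. The last of these was called with array weights (-0.76) and without pnd2 sample 3 (-0.91). Its dimmer probe set 1422402_a_at, with 40.7 to 74.4 at gd11 and 252 to 317 at gd16, gave 0.74 ± 0.21 (0.0543) for the first interval and 0.62 ± 0.21 (0.0488) from gd14 to gd16, so the probe sets differed in which interval was called.

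Gtsf1 encodes a small zinc finger protein that binds PIWI proteins and speeds their cleavage of targets. Its probe set 1441836_x_at read 6.19, 37.3 and 13.4 at gd11 and 48.0, 137 and 42.0 at gd12, then 1866, 1370 and 988 at gd14. Values of 1077, 2556 and 1854 followed at gd16, 6357, 6288 and 2258 at gd18, and 12718, 11866 and 13225 at pnd2. Every pnd2 array lay above every gd18 array, gd18 sample 6 fell within the gd16 range, and gd14 and gd16 overlapped. Gtsf1 rose by 3.82 ± 0.39 (adjusted p = 1.66e-06) from gd12 to gd14, by 1.37 ± 0.39 (0.0377) from gd16 to gd18 and by 1.48 ± 0.39 (0.0164) from gd18 to pnd2. Its change from gd11 to gd12, 1.03 ± 0.39 (0.151), was not called, and neither was that from gd14 to gd16 (0.33). The rise to gd18 was lost without gd18 sample 4 (1.12), gd18 sample 5 (1.12), gd16 sample 7 (1.03) or gd16 sample 9 (1.42), and that to pnd2 without gd18 sample 6 (0.99) or pnd2 sample 1 (1.47). The rise to gd18 was also not called with a pseudocount of 8, no filter, no mean-variance trend or a fit to only the arrays compared. The second probe set, 1452967_at, moved in the same intervals, by 2.42 ± 0.37 (0.000156), 1.52 ± 0.37 (0.0157) and 1.84 ± 0.37 (0.00255), and was at 5689 to 6677 at pnd2. With a mean of 12603 ± 687 (n = 3) at pnd2, Gtsf1 was still rising at the last interval sampled.

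Mov10l1 encodes an RNA helicase that binds piRNA precursors and passes them on for processing. It read 60.6, 58.4 and 50.1 at gd11, 146, 199 and 67.3 at gd12, and 1614, 1576 and 1549 at gd14. Later arrays gave 1813, 2115 and 2757 at gd16, 3287, 3678 and 1875 at gd18, and 2547, 1575 and 1799 at pnd2. The 3 gd14 arrays lay close together and far above gd12, and the 3 later stages overlapped one another. Mov10l1 rose by 3.34 ± 0.27 (adjusted p = 1.11e-07) from gd12 to gd14, which is the one interval in which it was called. The change to gd12 was 0.86 ± 0.27 (0.0852), and without gd12 sample 15, the lowest of that stage, it was 1.21 and was called (0.0151).

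Mael (Maelstrom) is an HMG-box protein of nuage and nucleus that acts in transposon silencing, and in mouse fetal oocytes it limits the activity of LINE-1 elements. It read 12.4, 24.7 and 15.8 at gd11 and 244, 505 and 118 at gd12. At gd14 it read 5390, 4114 and 3618, at gd16 2654, 5051 and 4541, at gd18 6688, 9231 and 4839, and at pnd2 4208, 3528 and 3959. The 4 stages from gd14 on overlapped with their neighbours in level, and gd11, gd12 and these later stages did not. Mael rose by 2.53 ± 0.34 (adjusted p = 0.000393) to gd12 and by 3.96 ± 0.34 (1.82e-07) to gd14, after which changes of -0.13, 0.76 and -0.78 were not called, though the last was in a fit to only the arrays compared. From gd12 to gd14 its log2 change and that of Gtsf1 (3.82 ± 0.39) lay within their errors of each other. Gtsf1 had the higher ratio of stage means, 18.6 against 15.1 for Mael.

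Tdrd9 encodes an RNA helicase with a Tudor domain that works with the PIWI protein MIWI2 in fetal male germ cells. Its signal was 90.4, 89.5 and 67.3 at gd11 and 95.9, 51.0 and 88.4 at gd12, and then 401, 383 and 385 at gd14. It read 3086, 5067 and 4004 at gd16, 7493, 10630 and 6275 at gd18, and 5809, 5394 and 3202 at pnd2. The gd11 and gd12 arrays overlapped, the gd14 arrays lay above both, and each of gd16 and gd18 lay wholly above the stage before. Tdrd9 rose by 1.97 ± 0.24 (adjusted p = 1.37e-05) to gd14, by 3.25 ± 0.24 (1.77e-07) to gd16 and by 0.99 ± 0.24 (0.0155) to gd18, and its change to gd12 was -0.07 ± 0.24 (0.918). Mean signal was 10.4 times higher at gd16 than at gd14, an interval in which no other member rose by more than 0.90 on the log2 scale. The rise to gd16 was called in every alternative run and lay between 3.08 and 3.43 when any 1 array was left out, including gd16 sample 7. The rise to gd18 was lost without gd18 sample 5 (0.78) or gd16 sample 7 (0.81). From gd18 to pnd2 Tdrd9 fell by 0.77 (SE 0.24, adjusted p = 0.0406), a call lost without pnd2 sample 3 (-0.50), gd18 sample 4 (-0.81) or gd18 sample 5 (-0.56), in a fit to only the arrays compared (adjusted p = 0.0713), and under the other settings given in the closing section.

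**Figure D2:**
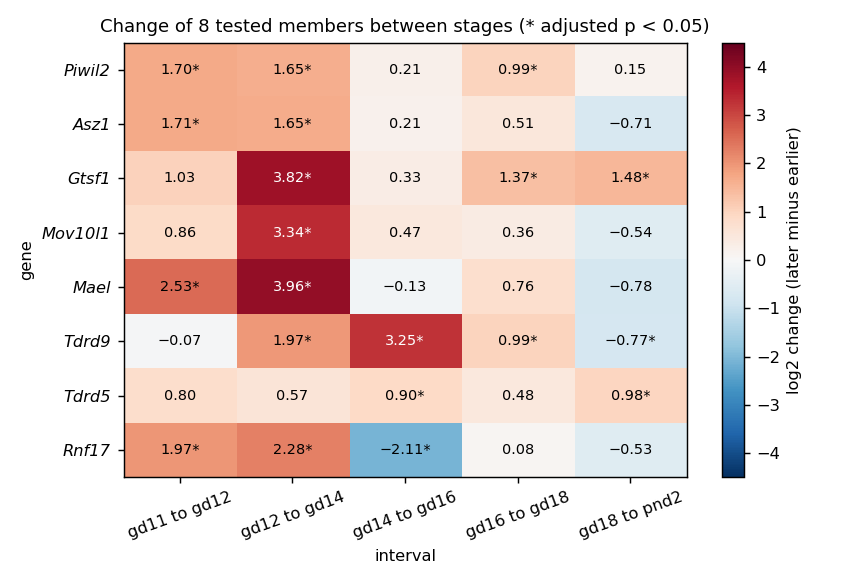
Log2 change (later minus earlier stage) of the 8 tested members in each of 5 intervals, with an asterisk where the adjusted p of limma was under 0.05. Calls cluster in the gd12 to gd14 column, where 7 of 8 members rose, while the Tdrd9 value of 3.25 stands in the column after it.

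Tdrd1 encodes a protein of several Tudor domains that binds methylated MILI, and its array values were near the bottom of the scale. The probe set read 4.31, 6.46 and 6.51 at gd11, 5.29, 3.49 and 2.31 at gd12, 7.02, 2.73 and 2.00 at gd14, and 4.78, 8.51 and 3.45 at gd16. It read 14.1, 6.13 and 3.43 at gd18 and 78.9, 19.9 and 55.2 at pnd2. All pnd2 arrays were above all gd18 arrays, but every one was under the filter level of 116.05, so Tdrd1 was not tested in the fit used here. In the fit with no filter its change from gd18 to pnd2 was 1.02 ± 0.22 (limma adjusted p = 0.00723), on a scale that understates changes of dim probe sets.

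Tdrd5, a nuage protein with Tudor and LOTUS domains, rose in steps of 0.48 to 0.98 on the log2 scale, early and late. It read 59.5, 62.2 and 63.6 at gd11, 104, 173 and 123 at gd12, and 265, 128 and 264 at gd14. Later values were 570, 451 and 281 at gd16, 731, 621 and 465 at gd18, and 1348, 1176 and 1114 at pnd2. The pnd2 arrays stood above all others, and gd14 overlapped gd12 through gd14 sample 11. Tdrd5 was called from gd14 to gd16 (0.90 ± 0.26, adjusted p = 0.021) and from gd18 to pnd2 (0.98 ± 0.26, 0.0161), and not at 0.80 ± 0.26 (0.0887), 0.57 ± 0.26 (0.146) and 0.48 in the other intervals. Without gd14 sample 11 the gd12 to gd14 change was 0.87 and was called, and the next was 0.60 and was not. The gd14 to gd16 call was also lost without gd16 sample 7 (0.69) or gd16 sample 8 (0.85) and in a fit to only the arrays compared, and the last without pnd2 sample 1 (0.91) or gd18 sample 6 (0.81).

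Rnf17 (TDRD4) is a RING-finger protein with Tudor domains that forms its own granules in male germ cells. It differed from the other members in that its representative probe set, 1438820_at, peaked at gd14. This probe set read 111, 122 and 203 at gd11, 643, 1105 and 367 at gd12, and 3259, 2800 and 3732 at gd14. It then read 896, 523 and 818 at gd16, 721, 964 and 651 at gd18, and 598, 496 and 475 at pnd2, so that every gd14 array lay above every array of the other stages. Rnf17 rose by 1.97 ± 0.29 (adjusted p = 0.000888) to gd12 and by 2.28 ± 0.29 (2.54e-05) to gd14 by this probe set and then fell by 2.11 (SE 0.29, 0.000109) to gd16. Its later changes of 0.08 and -0.53 were not called.

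The 4 probe sets of Rnf17 did not give the same course. Probe set 1459275_at read 976, 1030 and 1369 at gd14 and 982, 763 and 1050 at gd16, which overlap. Its change in that interval was -0.26 ± 0.26 (adjusted p = 0.511), and 1425709_at and 1425708_at gave -0.72 ± 0.28 (0.0783) and -0.71 ± 0.26 (0.067). The rise from gd12 to gd14 was called with all 4 probe sets, and it was 3.09 ± 0.26 for 1459275_at. Within an array, the log2 difference of 1438820_at minus 1459275_at was 0.47 to 2.58 on the 9 arrays up to gd14 and -0.83 to -0.13 on the 9 later ones. The fall from gd14 to gd16 was thus called with 1 of the 4 probe sets. Over gd14 to pnd2 it was called with 3 of them, at -2.57 ± 0.29 for 1438820_at, -1.18 ± 0.28 (0.00348) for 1425709_at and -0.86 ± 0.26 (0.0187) for 1425708_at, but not at -0.43 ± 0.26 (0.222) for 1459275_at. Which transcript forms each probe set reads was not analysed here.

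**Figure D3:**
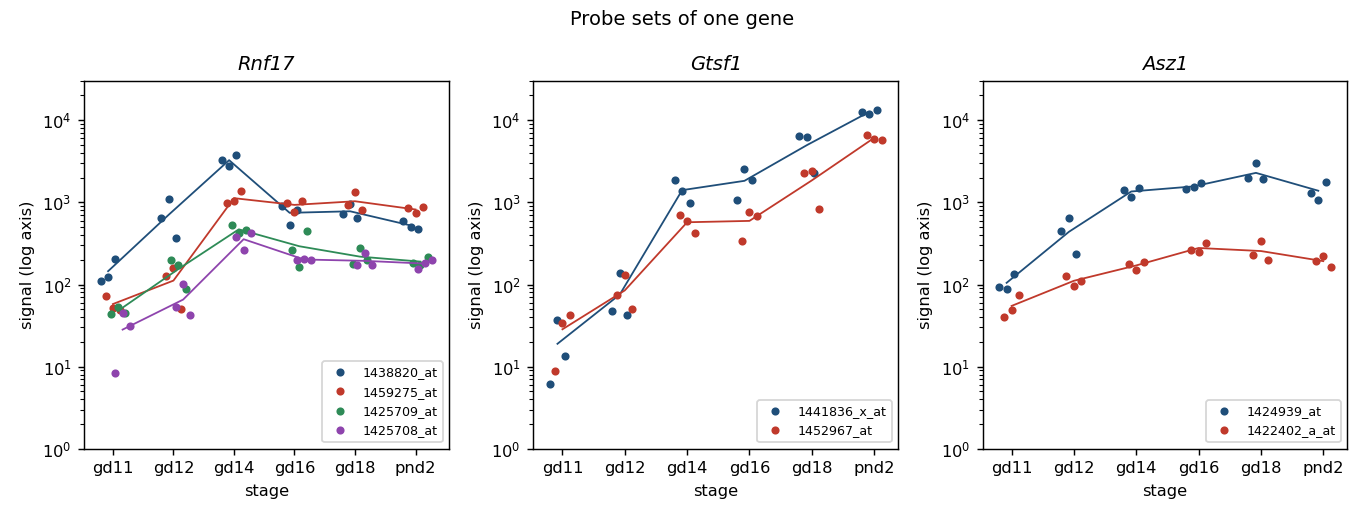
Signal (log scale) of every probe set of Rnf17, Gtsf1 and Asz1 by stage; points are arrays and lines join stage means. For Rnf17, 1438820_at drops from a mean of 3264 at gd14 to 746 at gd16, and 1459275_at from 1125 to 932.

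Counted by interval, most rises were called in the first 2 of the 5. From gd11 to gd12, 4 of 8 tested members rose (Mael, Rnf17, Asz1 and Piwil2), beside 3.07% of all probe sets called higher (4.12% in either direction), with a median log2 change of 1.36 against 0.04. From gd12 to gd14, 7 of 8 rose, all but Tdrd5, beside 9.42% (16.5% in either direction), with a median of 2.12 against -0.04. Over the same 2 intervals the sum of the germ cell markers went up on the arrays, as given above, and so did that of 6 granulosa lineage markers, from between 9574 and 10359 at gd11 to between 15393 and 38090 at gd12 and between 34740 and 37247 at gd14. Of those 6 genes, 5 were called higher at gd12 than at gd11 and 3 at gd14 than at gd12. Erythroid markers summed to 45331 to 50601 at gd11, 32696 to 35331 at gd14 and 102 to 175 at pnd2. The part of these cell types in the members' changes was not tested. Between gd14 and gd16, Tdrd9 and Tdrd5 rose and Rnf17 fell, 2 and 1 of 8, beside 9.68% called higher and 9.1% lower (18.8% in either direction). With arrays scaled to a common median, the 2559 probe sets called higher and 2406 lower in this interval became 997 and 3795, and from gd11 to gd12 the 812 and 277 became 526 and 611. The same scaling turned 1211 and 792 into 1503 and 411 from gd16 to gd18, 1744 and 1688 into 1918 and 1167 from gd18 to pnd2, and 5922 and 5167 into 4673 and 6869 from gd11 to pnd2. From gd16 to gd18, Gtsf1, Tdrd9 and Piwil2 rose, 3 of 8, beside 4.58% called higher (7.58% in either direction), and this count was 0 without gd18 sample 5 or gd16 sample 7 and 1 without gd18 sample 4. Between gd18 and pnd2, Gtsf1 and Tdrd5 rose and Tdrd9 fell, beside 6.6% higher and 6.39% lower (13% in either direction). Without pnd2 sample 1 or gd18 sample 6, 0 members were called higher in that interval, where the full fit by limma called 2 and 2 had an unadjusted p under 0.05. From gd14 to pnd2, Tdrd9 (3.48 ± 0.24), Gtsf1 (3.18 ± 0.39), Tdrd5 (2.37 ± 0.26) and Piwil2 (1.36 ± 0.26) rose and Rnf17 fell by 2.57, which is 4 higher and 1 lower beside 14.5% and 15.3% (29.8% in either direction). That gd14 to pnd2 split kept the same counts when any 1 array of either stage was left out.

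Whether the members moved with the germ cell transcripts Ddx4 (the RNA helicase VASA) and Dazl (an RNA-binding protein) was asked on the same arrays. The mean log2 value of these genes was subtracted from every probe set. Ddx4 lay between 109 and 267 at gd11, 581 and 2982 at gd12, and 7258 and 9912 at gd14. It lay between 3028 and 3492 at gd16, 3654 and 5810 at gd18, and 2357 and 3403 at pnd2. Since this reference itself moved, most probe sets were called in some intervals, and the members' counts are given beside those shares. A ratio of this kind shows unequal change and nothing about which side moved. Other germ cell markers changed unlike this reference. From gd12 to gd14 Sycp3 (5.10) and Stra8 (5.12) rose, and Dppa3 (-0.81), Pou5f1 (-0.65) and Kit (-0.49) were not called. From gd18 to pnd2 Dppa3 (1.68) and Pou5f1 (1.99) rose. In that interval Ddx4 (-0.64), Dazl (-0.77), Kit (0.58), Sycp3 (-0.04) and Stra8 (0.01) were not called.

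From gd11 to gd12, 7 of 8 members fell relative to Ddx4 and Dazl, beside 99.8% of all probe sets called lower. Mael, at -0.49 ± 0.52, was the one not called. Its signal was 12.4 to 24.7 at gd11, where the log2 scale used understates changes. The ratio of mean signal at gd12 over gd11 was 16.4 for Mael, 8.79 for Ddx4 and 11.0 for Dazl. With Ddx4 alone as reference, Asz1 (-1.02) and Rnf17 (-0.75) were not called either, and Rnf17 was also not called with a pseudocount of 8 (-1.03) or without gd12 sample 13, gd12 sample 14 (-0.92) or gd11 sample 18 (-0.72). Without gd11 sample 18, Asz1 (-0.99) and Piwil2 (-0.90) were not called. From gd12 to gd14, Mael (1.71 ± 0.52), Gtsf1 (1.57 ± 0.53) and Mov10l1 (1.09 ± 0.53, adjusted p = 0.0392) rose relative to them, 3 of 8 beside 0.223% of all probe sets called higher, and Tdrd5 fell by 1.68 beside 96.9% called lower. The call of Mov10l1 was lost with Ddx4 alone as reference (0.78, adjusted p = 0.137) and without gd14 sample 10 (0.99), gd14 sample 11 (1.06), gd12 sample 13 (1.12) or gd12 sample 14 (0.86). By the second probe set of Gtsf1 the same difference was 0.17 ± 0.53. Between gd14 and gd16, when Ddx4 and Dazl fell, 7 of 8 members rose relative to them, all but Rnf17 (-0.69 ± 0.53, 0.206), but so did 78.6% of all probe sets. For Rnf17 this rested on 1438820_at. Its probe set 1459275_at gave 1.16 ± 0.53 (limma adjusted p = 0.0394) and was called higher. The values of 1425708_at and 1425709_at, 0.71 ± 0.57 and 0.70 ± 0.56, were not called. Among the 7, the call of Mael was lost without gd16 sample 8 (1.10), gd16 sample 9 (1.21), gd14 sample 11 (1.29) or gd14 sample 12 (1.04). In that interval Tdrd9 rose by 4.67 ± 0.52 (7.29e-15), the largest rise of the 8 members. On single arrays the Tdrd9 difference was -4.71 to -4.23 at gd14 and -0.12 to 0.60 at gd16, with no overlap.

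From gd16 to gd18, 0 of 8 members were called by limma in the relative values, 0 had an unadjusted p under 0.05, and 0.129% of all probe sets were called. The rises of Gtsf1, Tdrd9 and Piwil2 in the direct values were there 0.92 ± 0.53, 0.54 ± 0.52 and 0.54 ± 0.52. From gd18 to pnd2, Gtsf1 rose by 2.19 ± 0.53 (adjusted p = 0.00298) relative to the reference, 1 of 8 beside 2.92% called higher, and this call was lost without gd18 sample 6. Tdrd5 had 1.69 ± 0.54 (0.0557) and was not called. Over the whole period from gd11 to pnd2, Gtsf1 (4.44), Mael (2.75), Tdrd9 (1.79) and Piwil2 (1.11, 0.0331) rose relative to Ddx4 and Dazl, 4 of 8 beside 0.288% of probe sets, while Rnf17 fell by 1.90 beside 98.1%. Gtsf1, Mael and Tdrd9 lay below the filter level at gd11, so their rises were in part set by the filter. Rnf17 was also called lower by 1425708_at (-1.71) and 1425709_at (-2.10), but not by 1459275_at (-0.32 ± 0.53). Asz1 was not called (-0.22 ± 0.53), though 1422402_a_at was called lower (-2.20 ± 0.57). The call of Piwil2 was lost with Ddx4 alone as reference (0.95, adjusted p = 0.0655) and without pnd2 sample 1 (1.16), pnd2 sample 2 (0.95), gd11 sample 16 (1.02) or gd11 sample 19 (0.78). From gd14 to pnd2, 7 of 8 members rose, beside 84.7%. Rnf17 was not called by 1438820_at (-0.89 ± 0.53) but was called higher by 1459275_at (1.25 ± 0.53).

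**Figure D4:**
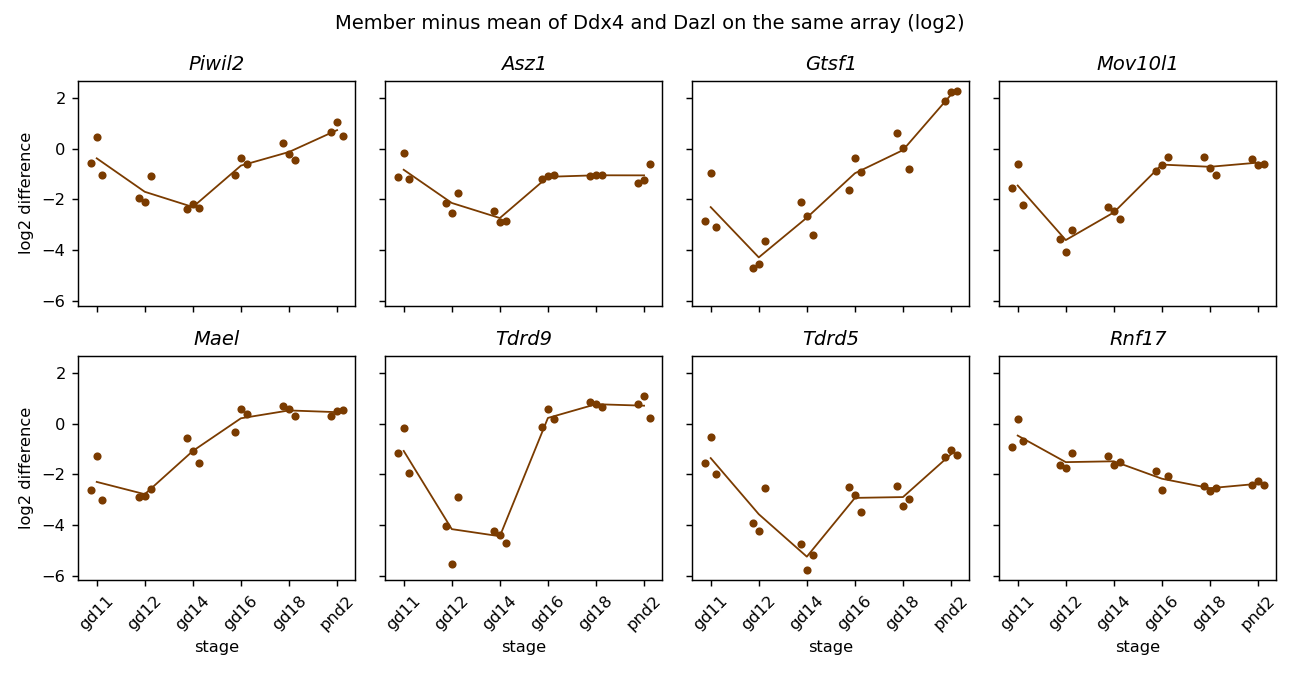
Log2 difference between each tested member and the mean of Ddx4 and Dazl on the same array, by stage; points are arrays, lines join stage means, and only changes between stages carry meaning, since levels of different probe sets are not comparable. Tdrd9 moves from between -4.71 and -4.23 at gd14 to between -0.12 and 0.60 at gd16, and Gtsf1 keeps rising to pnd2.

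Likeness of course was measured as the root mean square difference of the 6 stage means on the log2 scale after each profile was centred on its own mean. Among the members, the closest pairs were Asz1 and Piwil2 (0.50), Piwil2 and Tdrd5 (0.65) and Mov10l1 and Piwil2 (0.66), and the farthest were Rnf17 and Tdrd9 (2.62) and Gtsf1 and Rnf17 (2.57). Among 12047 other tested genes, the nearest to Piwil2 were Cpeb1, a regulator of oocyte mRNA polyadenylation (0.17), and Gatm, an enzyme of creatine synthesis (0.22). Nearest to Mael were the meiotic cohesin subunit Smc1b (0.44) and the synaptonemal complex gene Sycp3 (0.48), and nearest to Mov10l1 were Tex15 (0.28) and Cfap54 (0.37). Tdrd9 was closest to Bzw2 (0.68) and the anion transporter Slc26a7 (0.75), and Gtsf1 to the oocyte transcription factor Figla (0.79) and Slc26a7 (0.84). For Tdrd5 the nearest were Lrrc17 (0.16) and the chloride channel Ano1 (0.19), for Asz1 Bace2 (0.20) and the calcium channel Ryr2 (0.26), and for Rnf17 Atf7ip2 (0.44) and Myh8 (0.44). These distances rest on 6 stage means from the same arrays and are descriptions.

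Of 17 other genes of the piRNA pathway, 15 had a probe set assigned to them alone and 14 were tested. From gd11 to gd12, 4 of the 14 rose, among them Ddx4 by 2.72, Gpat2, a mitochondrial acyltransferase-like factor of primary piRNA formation, by 1.62 and Tex15, a factor of piRNA-directed methylation in male germ cells, by 1.56. These 4 of 14, the last being Morc1 (1.27), stood beside 3.07% of all probe sets called higher. At gd11 the means of Gpat2 (44.9) and Morc1 (103) lay below the filter level, and both passed only through later stages. From gd12 to gd14, 6 rose and 3 fell, beside 9.42% of all probe sets called higher and 7.05% lower. Gpat2 rose by 4.21, Tex15 by 3.03, Ddx4 by 2.56, Mybl1, a transcription factor of male meiosis, by 2.07, Exd1, a partner of TDRD12, by 1.22 and Piwil1, the PIWI protein MIWI, by 1.11. Morc1 fell by 1.12, Gtsf1l by 1.55 and Ago2, which acts with siRNAs and miRNAs, by 0.67. Gtsf1l passed the filter only through gd12, where its mean was 131 against 27.3 at gd14, so its fall was in part set by the filter. The Piwil1 means of 20.8 at gd12 and 80.3 at gd14 both lay below the filter level. Between gd14 and gd16, 3 fell beside 9.1% of all probe sets, Mybl1 by 1.39, Ddx4 by 1.30 and Gpat2 by 1.27. At this interval limma called 0 higher, and 2 were higher at an unadjusted p under 0.05. From gd16 to gd18, Pld6, the mitochondrial nuclease that cuts precursors, rose by 0.87, the 1 gene called, beside 4.58% of probe sets called higher. The Pld6 mean at gd16, 96.0, lay below the filter level. Between gd18 and pnd2, Morc1 (1.82) and Piwil4 (1.47), which encodes MIWI2, rose and Mov10 fell by 0.69, beside 6.6% of probe sets called higher and 6.39% lower, although the Piwil4 arrays of the 2 stages overlapped. The medians over the 14 genes were 0.57, 0.83, 0.04, 0.39 and -0.32 in the 5 intervals, beside 0.04, -0.04, 0.08, -0.04 and -0.06 for all probe sets.

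Of 10 other genes with a Tudor domain, 9 had such a probe set and all 9 were tested. The germ cell gene Stk31, which joins a Tudor to a kinase domain, rose by 2.07 to gd12 and by 4.46 to gd14 and then fell by 1.48 to gd16 and by 2.01 from gd18 to pnd2. Tdrd12 (1.42) and the mitochondrial anchor protein Akap1 (0.65) rose to gd12, making 3 of 9, and Tdrd7 (2.29) and the mitochondrial PIWI partner Tdrkh (1.46) rose to gd14, again 3 of 9 with Stk31. The shares of all probe sets called higher were 3.07% and 9.42% in these intervals. At gd11 the means of Stk31 (29.8) and Tdrd12 (97.2) lay below the filter level, and both passed only through later stages. Between gd14 and gd16, 3 of 9 fell, Stk31, Tdrkh by 0.93 and the splicing factor Smndc1 by 0.88, beside 9.1% of all probe sets. Smndc1 rose by 0.72 to gd18, and Tdrd3, a reader of methylated arginine outside the pathway, rose by 0.71 to pnd2. Called higher were thus 1 of 9 in each of the last 2 intervals, beside 4.58% and 6.6%, and 1 of 9 lower in the last, beside 6.39%. The medians over the 9 genes were 0.35, 0.13, -0.79, 0.23 and 0.17 in the 5 intervals, beside the values for all probe sets given above. From gd14 to gd16, the interval in which Tdrd9 rose, limma called 0 of these 9 higher, and 0 were higher at an unadjusted p under 0.05.

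**Figure D5:**
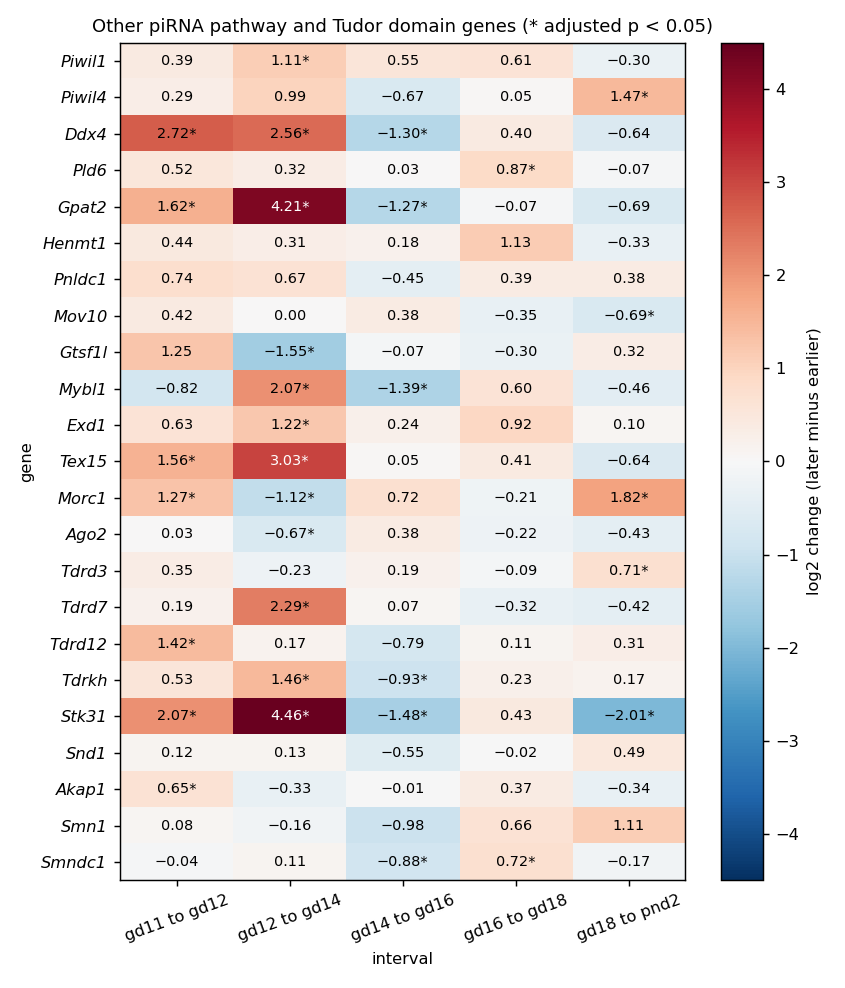
Log2 change (later minus earlier stage) of each tested gene of the other piRNA pathway list (14 genes) and the other Tudor domain list (9 genes) in 5 intervals. Each row is a gene, colour and number give the change, and an asterisk marks a limma adjusted p under 0.05. In the gd14 to gd16 column the called genes of both lists, 3 and 3, have negative values.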

How the data were processed

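RNA of 18 ovary samples and 1 whole-animal sample was amplified in 2 rounds and hybridized, per the labels. The authors deposited linear signal intensity values, and the submitters' processing notes name GCOS. Its version and settings were not given in the sources used here. The 2%-trimmed mean of every array was 500.003, so the values were used as deposited. Precision is limited by the number of arrays. Changes were tested with limma 3.58.1 in R 4.3.3 on log2(signal + 31), where 31 is the 25th percentile, with 1 term per stage, a mean-variance trend, 12 residual degrees of freedom and two-sided p adjusted over 26431 probe sets. The scale understates changes of dim genes. Probe sets were named from the platform annotation, leaving unnamed the 932 with several genes and dropping 64 controls.

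The members and lists were chosen with earlier results of these data known. All members were named, with called genes of each list (mostly the 4 of largest change per interval, others added after their values were seen), and the 2 nearest genes per member. Clone and predicted names were left out. Sequences came from RefSeq. Promoters of Piwil2 and Rnf17 are named only. Alternatives were a pseudocount of 8 or 116, quantile or median scaling, no or a stricter filter, a fit of the compared arrays, no trend, array weights, a 2-fold threshold, Ddx4 or Dazl alone as reference, the 2 gd11 samples of 1 dam averaged, the mean of a gene's probe sets and leaving out each array. Code was tested on simulated data.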

Additional observations from a re-analysis of the deposited data

How the results depend on the processing

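No called change of a member turned its direction in the alternatives run. Changes that were not called crossed 0 in some of them, as when arrays were left out for Piwil2 from gd18 to pnd2 (-0.12 to 0.33), Mael from gd14 to gd16 (-0.31 to 0.15), Tdrd9 from gd11 to gd12 (-0.19 to 0.13) and Rnf17 from gd16 to gd18 (-0.15 to 0.22). With a fit to only the arrays compared, 1 member rather than 2 rose from gd14 to gd16 and 1 rather than 3 from gd16 to gd18. With a threshold of 2-fold, 1 member rose in each of the 3 intervals from gd14 to gd16, gd16 to gd18 and gd18 to pnd2. The fall of Tdrd9 from gd18 to pnd2, 1 member, became 0 with a pseudocount of 8, median scaling, no filter, no trend or the 2-fold threshold, and 2 members fell with array weights. In the fit to only the arrays compared the count stayed at 1, but Tdrd9 was not called (adjusted p = 0.0713 by limma) and Mael was (0.0379). The causes were not tested.

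Leaving out each array in turn gave 4 to 5 members higher from gd11 to gd12, 7 to 8 from gd12 to gd14, 1 to 2 from gd14 to gd16, 0 to 3 from gd16 to gd18 and 0 to 2 from gd18 to pnd2, where 0 to 1 fell. It gave 8 higher from gd11 to pnd2 throughout. Relative to Ddx4 and Dazl, 4 to 7 members were lower from gd11 to gd12 (4 without gd11 sample 18), 1 to 2 from gd12 to gd14 (2 without gd12 sample 14), and 0 to 1 were higher from gd18 to pnd2, 2 to 3 from gd12 to gd14, 6 to 7 from gd14 to gd16 and 3 to 5 from gd11 to pnd2. Median scaling moved the median change of all probe sets from 0.04 to -0.07 (gd11 to gd12), from 0.08 to -0.09 (gd14 to gd16) and from 0.01 to -0.13 (gd11 to pnd2).

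No paired analysis was possible because sample numbers run through the series and no number is shared by 2 stages. Whether replicate spread is that of animals or of pools differs between labels and series text. Probe sets near background, as Tdrd1, have understated changes, and 3 arrays per stage limit the calling of small changes.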
